A study of Mus musculus with 68 samples.

Results

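The papilloma arrays were compared by how much skeletal muscle RNA they carried. All 68 arrays were ranked on the log2 value of Acta1, the skeletal muscle α-actin gene, and the 20 highest arrays (muscle-rich, from 17 mice) were set against the 20 lowest arrays (muscle-poor, from 15 mice), with 28 arrays (from 21 mice) between them. Each array measured total RNA of 1 whole papilloma. The papillomas grew on the back skin of FVBBX mice, offspring of SPRET/Ei and FVB/N hybrids crossed again with FVB/N, after 1 application of the carcinogen DMBA at 8 to 12 weeks of age and then the tumor promoter TPA 2 times a week for 20 weeks, so both groups shared strain and treatment. Of the 37 mice, 31 gave 2 papillomas and 6 gave 1. The submitters also labeled mice as susceptible or resistant by papilloma number, and mice with neither label are called intermediate here. The muscle-rich group held 8 susceptible, 10 intermediate and 2 resistant arrays, and the muscle-poor group held 6 susceptible, 12 intermediate and 2 resistant arrays. By coat, 9 muscle-rich arrays came from agouti and 11 from white mice, against 7 and 13 muscle-poor arrays. The groups were not matched on days alive, a label given for 31 of the mice. Every group was thus chosen by a measured value and not by a label.

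Mouse skin has a thin sheet of striated muscle, the panniculus carnosus, beneath the dermis and the dermal fat, so a piece of skin cut deeply enough takes muscle, fat, connective tissue and vessels with it. Striated muscle contracts when myosin of the thick filament pulls on actin of the thin filament, under the control of troponin and calcium. The panniculus carnosus of the mouse consists mainly of fast fibers, which use their own set of myosin and troponin genes, and slow, cardiac and embryonic fibers use others.

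The groups differed in sex. The muscle-rich group held 16 arrays of females and 4 of males, against 7 arrays of females and 13 of males in the muscle-poor group, so the counts of calls are also given with sex as a term in the fit. The X-linked transcript Xist or the Y-linked gene Eif2s3y went against the sex label on 8 arrays of 6 mice. In mice 12 and 13 this held for papilloma 2 only, so the arrays of each of these mice disagreed. Whether the sex label or the assignment of an array to its mouse was wrong was not tested, and the sex term used the labels as given. From the 6 mice came 1 muscle-rich array and 5 muscle-poor arrays, and values without these mice are given beside most counts. The 68 arrays had medians between 5.19 and 5.29 on the log2 scale. The log2 ratio of the 3 prime to the 5 prime control signal of Actb, a measure of RNA integrity, lay between -0.27 and 1.28 (median 0.69) on the muscle-rich arrays and between 0.47 and 2.13 (median 0.66) on the muscle-poor arrays.

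Acta1 varied without a gap along the ranking. Its log2 value lay between 9.48 and 12.55 (median 11.34) on the muscle-rich arrays and between 5.52 and 6.35 (median 5.81) on the muscle-poor arrays, and the middle arrays spanned 6.36 to 9.29 (median 7.44). The last muscle-rich array stood at 9.48 and the next array at 9.29, while the lowest middle array stood at 6.36 and the first muscle-poor array at 6.35. These values chose the groups and carry no test. The lower end of the ranking was flat, so where the muscle-poor group began was set by small differences: ranking by Ckm, the muscle creatine kinase gene, in place of Acta1 kept 18 of the 20 muscle-rich arrays but 12 of the 20 muscle-poor arrays.

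**Figure D1:**
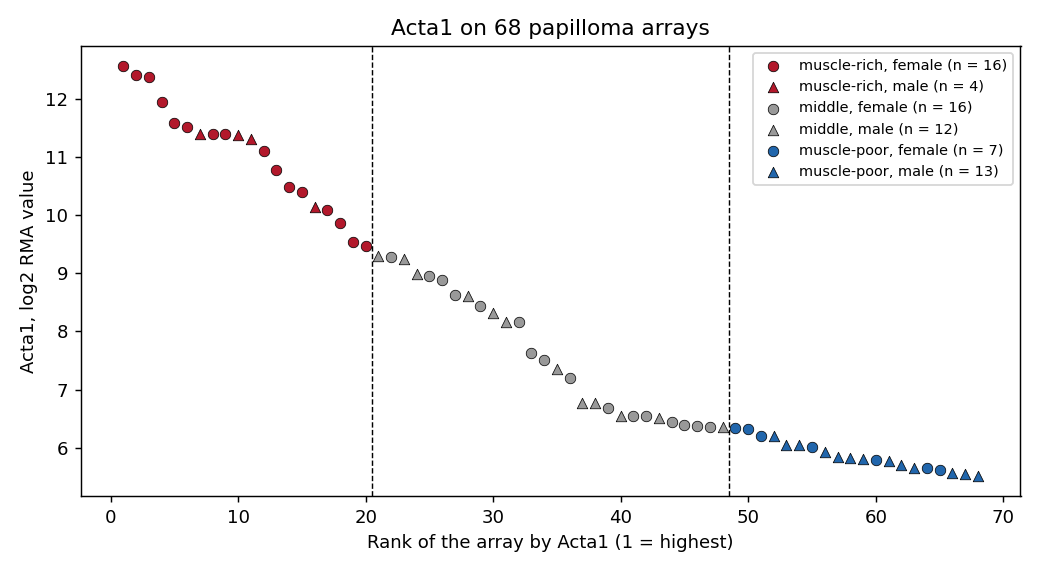
Acta1 log2 value (vertical axis) of each of the 68 arrays against its rank (horizontal axis), with circles for females, triangles for males and dashed lines at the group limits. The muscle-rich arrays lie between 9.48 and 12.55 and include 4 males, and the muscle-poor arrays lie between 5.52 and 6.35 and include 13 males.

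Several genes of fast skeletal muscle fibers followed Acta1 almost array by array. Myh1, the myosin heavy chain of fast type IIx fibers, lay between 6.96 and 11.84 (median 9.69) on the muscle-rich arrays and between 2.83 and 3.43 (median 3.15) on the muscle-poor arrays. Tnnc2, the calcium-binding troponin C of fast fibers, lay between 7.77 and 11.09 (median 9.68) on the muscle-rich arrays and between 4.09 and 5.10 (median 4.61) on the muscle-poor arrays. For both genes every muscle-rich array stood above every muscle-poor array. Since Acta1 chose the arrays, these and the other muscle values are a description. Besides Acta1, 65 muscle genes passed the filter on low values, which they could pass through the muscle-rich arrays alone, and 17 of them had every muscle-rich array above every muscle-poor array, beside 0.0974% of all 21561 tested probesets. Among the 17 were Tnnt3 and Tnni2 (fast troponins T and I), Myl1 and Mylpf (fast myosin light chains), Atp2a1 (the calcium pump of the fast-fiber sarcoplasmic reticulum), Pvalb (parvalbumin, a calcium buffer of fast fibers), Mb (myoglobin), Neb (nebulin, the ruler of the thin filament) and Ttn (titin).

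The members of the fiber-type group did not move alike. Mean log2 differences (muscle-rich minus muscle-poor, with the SE of the fit) were 6.61 ± 0.28 for Myh1, 2.77 ± 0.45 for Myh4 of type IIb fibers and 2.54 ± 0.30 for Myh2 of type IIa fibers. Myh4 overlapped between the groups: it lay between 3.04 and 9.70 (median 5.82) on the muscle-rich arrays and between 3.00 and 3.34 on the muscle-poor arrays, with 16 of the 20 muscle-rich arrays above every muscle-poor array. Myosin heavy chains are close paralogs, and cross-hybridization between their probesets was not tested. Mybpc2, the fast-type myosin-binding protein C, also overlapped, with 11 muscle-rich arrays above every muscle-poor array. Actn3, an actinin of fast fibers, had 16. Genes of other fiber types varied. Mybpc1, the slow-type myosin-binding protein C, had medians of 6.89 on the muscle-rich and 4.69 on the muscle-poor arrays, with 18 muscle-rich arrays above every muscle-poor array, and Myoz2, a Z-disc protein of slow and cardiac fibers that did not pass the filter, had medians of 5.23 and 4.33. The slow myosin Myh7 had medians of 4.70 on the muscle-rich and 4.78 on the muscle-poor arrays, embryonic Myh3 of 3.61 and 3.62, and perinatal Myh8 of 3.57 and 3.45, in the same order of groups, and none of these 3 genes passed the filter. The slow troponin genes Tnnt1 and Tnnc1 and the slow light chain gene Myl2 did not pass it either. Tnni1, slow troponin I, had medians of 5.64 on the muscle-rich and 5.71 on the muscle-poor arrays, although 1 muscle-rich array reached 7.85, and Myl3, a slow and cardiac light chain, had a difference of -0.03 ± 0.06. Of 10 cardiac markers 4 passed the filter and none passed the test of limma, with 0 at an unadjusted p under 0.05.

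**Figure D2:**
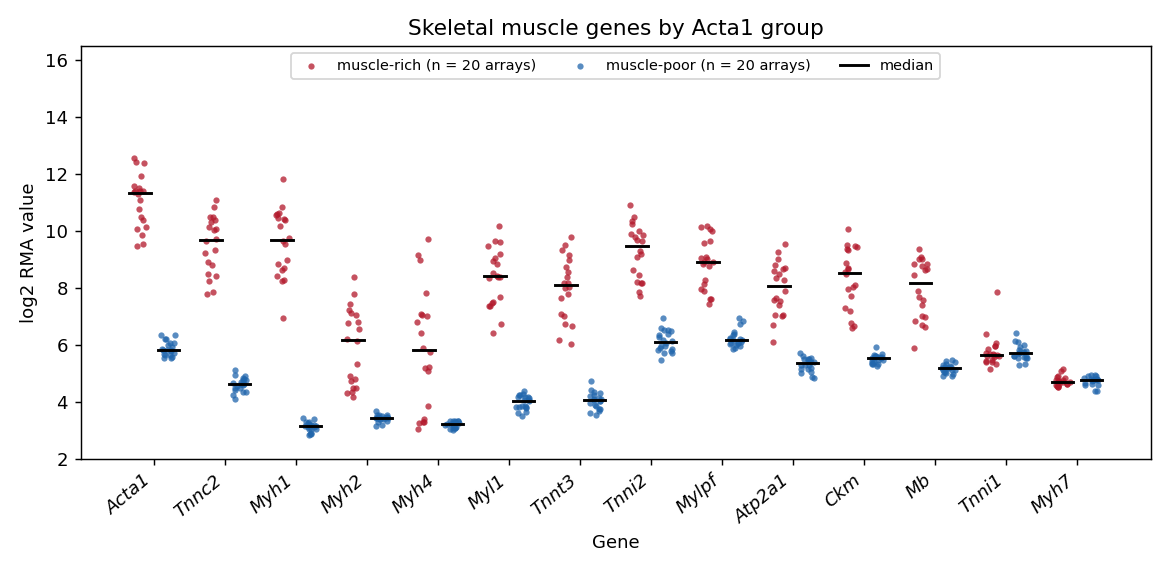
Log2 RMA values (vertical axis) of 14 muscle genes on the 20 muscle-rich arrays (red, left of each pair) and the 20 muscle-poor arrays (blue, right), with a line at each median. The fast-fiber genes Myh1 and Tnnc2 separate the groups fully, Myh4 overlaps, and Tnni1 and Myh7 have nearly equal medians.

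Over the 6 muscle lists, 105 of 111 genes had a probeset and 66 passed the filter on low values. Over all members with a probeset the median log2 difference was 0.96 for the thin filament, 0.70 for the thick filament, 1.26 for the Z-disc and titin system, 0.18 for calcium release and excitation, 1.07 for muscle energy supply and 0.07 for myogenic regulators and muscle ligases, against -0.01 over all 21561 tested probesets. The Z-disc proteins anchor the filaments: Myot (myotilin) differed by 2.91 ± 0.24 and Tcap (telethonin) by 1.88 ± 0.13. In the energy list, Ckm lay between 6.58 and 10.05 (median 8.53) on the muscle-rich arrays and between 5.25 and 5.92 (median 5.54) on the muscle-poor arrays, and Mb differed by 2.80 ± 0.22. Genes that other cells of the papilloma also use overlapped between the groups: Atp2a2, the calcium pump of keratinocytes and slow muscle, had medians of 11.96 and 11.97 on the muscle-rich and muscle-poor arrays, and Tpm2 and Tpm1, tropomyosins also made by smooth muscle and fibroblasts, differed by -0.02 ± 0.07 and 0.76 ± 0.17. The transcription factors that set up muscle during development and repair, Myod1, Myf5, Myog and Pax7, did not pass the filter, with Myod1 medians of 4.43 on the muscle-rich and 4.49 on the muscle-poor arrays. Mef2c, which activates muscle genes but is also made by endothelial and immune cells, differed by 1.09 ± 0.18.

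The 10 probesets most like Acta1 by Pearson correlation over the 68 arrays, which share the host in 31 pairs, belonged to 9 genes: Tnnc2 (r = 0.98), Myl1 (0.97), Tnnt3 (0.97), Myh1 (0.96 for both of its probesets), Tnni2 (0.95), Mylpf (0.94), Mb (0.93), Myot (0.93) and Atp2a1 (0.93). All 9 are in the muscle lists.

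The promoters of the muscle genes were searched for short motifs known to bind muscle transcription factors. Promoters of 300 bases (250 before to 50 after the annotated start) were taken from RefSeq for the mouse build GRCm38.p6, in which 100 promoters of 82 muscle-list genes were found. Of these, 42 held the E-box CAGCTG, the preferred site of MyoD-type factors, against 16.3% of all 32851 promoters, 23 held TATAAA against 13.6%, 7 held the CArG box that binds serum response factor against 1.63%, and 5 held a MEF2 site against 0.557%, all on either strand. The looser E-box CANNTG, which includes CAGCTG, was in 85 of the 100 and in 72.3% of all. For muscle genes with every muscle-rich array above every muscle-poor array, 15 promoters of 12 genes were found. Of these 15, 7 held CAGCTG. Shown here are the gene that ranked the arrays and 3 fast-fiber genes that followed it, read 5′ to 3′ on the strand of the gene, with capitals marking matches on either strand to CAGCTG, to the motif TATAAA, to the CArG box or to the MEF2 site.
Acta1 promoter, chr8:123894726-123895025, minus strand: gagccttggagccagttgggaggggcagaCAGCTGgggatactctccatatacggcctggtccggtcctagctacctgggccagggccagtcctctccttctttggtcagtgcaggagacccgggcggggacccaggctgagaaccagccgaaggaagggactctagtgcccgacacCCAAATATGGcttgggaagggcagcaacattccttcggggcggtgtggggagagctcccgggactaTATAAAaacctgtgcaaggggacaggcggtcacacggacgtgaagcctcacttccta
Mylpf promoter, chr7:127211358-127211657, plus strand: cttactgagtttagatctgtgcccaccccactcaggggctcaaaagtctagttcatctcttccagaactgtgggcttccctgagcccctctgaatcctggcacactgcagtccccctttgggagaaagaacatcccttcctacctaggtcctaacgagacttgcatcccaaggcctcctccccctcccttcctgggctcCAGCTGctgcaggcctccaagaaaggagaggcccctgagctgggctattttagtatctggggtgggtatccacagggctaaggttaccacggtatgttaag
Atp2a1 promoter, chr7:126463024-126463323, minus strand: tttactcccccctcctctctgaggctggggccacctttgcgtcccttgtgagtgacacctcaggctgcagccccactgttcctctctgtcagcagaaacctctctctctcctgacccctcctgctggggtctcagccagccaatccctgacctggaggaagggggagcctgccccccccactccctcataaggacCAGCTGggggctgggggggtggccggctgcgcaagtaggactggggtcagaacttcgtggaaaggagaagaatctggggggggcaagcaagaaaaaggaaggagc
Myh1 promoter, chr11:67199852-67200151, plus strand: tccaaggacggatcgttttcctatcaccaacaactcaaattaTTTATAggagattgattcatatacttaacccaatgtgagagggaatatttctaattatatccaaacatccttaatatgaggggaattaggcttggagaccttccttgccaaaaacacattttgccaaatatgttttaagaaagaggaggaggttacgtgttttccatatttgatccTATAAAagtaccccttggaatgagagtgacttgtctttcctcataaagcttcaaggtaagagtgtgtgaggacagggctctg
The Acta1 window held 1 CAGCTG, 1 CArG box that began at position -73 from the annotated start, and 1 TATAAA. The Mylpf and Atp2a1 windows held 1 CAGCTG each and no other of the marked motifs, whereas the Myh1 window held 2 TATAAA matches and no E-box of either kind. The windows of Tnnc2 and Actn2, which are not shown, held none of the marked motifs. A match of letters is a description and not a site of binding.

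The fit called changes in many genes, with the muscle genes counted among them. With mouse as a random block (consensus correlation 0.51 between arrays of a mouse), 1766 of 21561 probesets were higher (8.19%) and 1115 lower (5.17%) on the muscle-rich arrays, which were selected on Acta1, at an adjusted p under 0.05. With sex as a term, which was added after seeing the data, 405 were higher (1.88%) and 86 lower (0.399%), and all 2881 calls kept their sign. Without the mice of doubtful sex label 293 were higher (1.36%) and 65 lower (0.301%), and in males alone 41 were higher (0.19%) and 0 lower (0%), with 219 lower at an unadjusted p under 0.05 in limma. Of the 2881 calls, 486 were also called with the sex term, 358 without those mice and 286 in both. The share of calls that were higher was 61.3%, but 43.4% with each array centered on its median over the tested probesets and 45.7% with that median taken outside the muscle lists. Mouse 14, whose papillomas were 1 in each group, bore on the counts most: without it 693 were higher and 225 lower, and without mouse 13, which gave 2 muscle-poor arrays, 956 were higher and 482 lower. The number of lower calls also moved without mice 21 (741), 25 (700), 31 (696) and 35 (677). Of 65 called genes outside the muscle lists that the naming rule or the text singled out, 30 passed without each single mouse, and 27 lost their call without mouse 14 and 24 without mouse 13. Some of the 65, such as Fhl1 and Myhas, are also products of striated muscle. In whole papillomas, fewer cells of a type and less RNA per cell cannot be told apart.

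White fat genes rose in part. Of 15 fat genes tested, 7 were higher and 1 lower, with a median log2 difference of 0.86 against -0.01 over all tested probesets. The lower gene was Dgat2, at -0.42 ± 0.14 (limma adjusted p = 0.044, 0.16 with sex as a term). Cidea, Lipe and Thrsp had differences of -0.22 ± 0.23, -0.21 ± 0.17 and -0.055 ± 0.056, and Fabp4, described below, was also negative. The calls stand against backgrounds of 8.19% higher and 5.17% lower, and 10 of the 15 differences were positive. These counts include Car3, which skeletal muscle also makes. With sex as a term 3 were higher (Car3, Plin4 and Lpl) and none lower, and without the mice of doubtful label 5 were higher and none lower. The other higher calls, Adipoq, Cd36, Cidec and Retn, did not pass with sex as a term (limma adjusted p = 0.063, 0.077, 0.17 and 0.17). How much of the calls that held came from muscle was not tested. Adipoq, the fat cell hormone adiponectin, lay between 3.95 and 11.91 (median 7.97) on the muscle-rich arrays and between 3.55 and 9.00 (median 4.11) on the muscle-poor arrays, and rose by 2.77 ± 0.63 (limma adjusted p = 0.0063). The groups overlapped, with 9 muscle-rich arrays above every muscle-poor array, and the adjusted p was 0.063 with sex as a term and 0.034 without the mice of doubtful label. Lpl, lipoprotein lipase, lay between 9.15 and 12.18 (median 10.41) on the muscle-rich arrays and between 6.48 and 11.27 (median 8.35) on the muscle-poor arrays, and rose by 1.69 ± 0.39 (adjusted p = 0.0067, 0.048 with sex as a term). Plin4, a coat protein of lipid droplets, rose by 1.24 ± 0.25 (adjusted p = 0.0025, 0.031 with sex as a term), and Cd36, the fatty acid transporter that muscle and vessels also make, rose by 1.67 ± 0.43 (adjusted p = 0.013, 0.077 with sex as a term). Fabp4, which fat cells make and which ranged from 11.25 to 14.35 over both groups, had medians of 13.72 on the muscle-rich and 13.86 on the muscle-poor arrays and a difference of -0.26 ± 0.20 (adjusted p = 0.38). The summed linear level of the fat list ran from 12160 to 43920 (median 27410) on the muscle-rich arrays and from 7518 to 28650 (median 22150) on the muscle-poor arrays.

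Car3, carbonic anhydrase 3, had the largest difference among tested genes outside the muscle lists. It lay between 10.03 and 13.03 (median 11.61) on the muscle-rich arrays and between 3.38 and 11.35 (median 5.99) on the muscle-poor arrays, and rose by 4.45 ± 0.65 (limma adjusted p = 1.25e-05, 0.000468 with sex as a term). Both fat cells and skeletal muscle are known to make it. No muscle-rich array fell below 10.03, and the muscle-poor arrays spread over almost 8 log2 units. Cox8b, a cytochrome oxidase subunit that brown fat shares with striated muscle, is in the muscle and the brown fat lists and differed by 1.23 ± 0.19, while Ucp1, which defines brown fat, did not pass the filter.

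Most genes of dermal fibroblasts and their matrix rose. Of 27 tested, 19 were higher and none lower, all 27 differences were positive (26 with sex as a term and 26 without the mice of doubtful label), and the median was 0.62, beside a background of 8.19% higher; with sex as a term 10 were higher, and without the mice of doubtful label 11. Col14a1, a collagen that binds the surface of fibrils, lay between 5.61 and 8.17 (median 7.02) on the muscle-rich arrays and between 4.57 and 6.78 (median 5.55) on the muscle-poor arrays. It rose by 1.39 ± 0.20 (limma adjusted p = 1.22e-05, 0.00026 with sex as a term), with 13 muscle-rich arrays above every muscle-poor array. Ogn, the small proteoglycan osteoglycin, lay between 5.59 and 11.83 (median 7.26) on the muscle-rich arrays and between 4.36 and 7.47 (median 5.62) on the muscle-poor arrays, and rose by 2.22 ± 0.38 (adjusted p = 0.000217, 0.00434 with sex as a term). Mfap5, a microfibril glycoprotein, rose by 1.57 ± 0.30 (adjusted p = 0.0011, 0.0083 with sex as a term), and Dcn, the collagen-binding proteoglycan decorin, rose by 1.35 ± 0.29 (adjusted p = 0.0043, 0.031 with sex as a term). The fibrillar collagens Col3a1 and Col1a1 moved less than these genes and lay higher on the log2 scale. Col3a1 had medians of 13.51 on the muscle-rich and 13.12 on the muscle-poor arrays. Whether the height of the signal bears on the size of a difference was not tested. Col3a1 rose by 0.62 ± 0.16 (adjusted p = 0.014, 0.055 with sex as a term), and Col1a1 had medians of 12.62 on the muscle-rich and 12.26 on the muscle-poor arrays with a difference of 0.52 ± 0.20 (adjusted p = 0.072). The mean over the list was higher on the muscle-rich arrays within each of the 7 start cohorts, by between 0.30 and 2.10 log2 units. Some cohorts were small: cohorts 4 and 7 each set 1 muscle-rich array against 2 muscle-poor arrays, and those of cohort 4 all came from mice of doubtful sex label. In cohort 1 all muscle-rich arrays were of females and all muscle-poor arrays of males. The summed linear level of the list ran from 31720 to 124800 on the muscle-rich arrays and from 18530 to 82150 on the muscle-poor arrays.

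**Figure D3:**
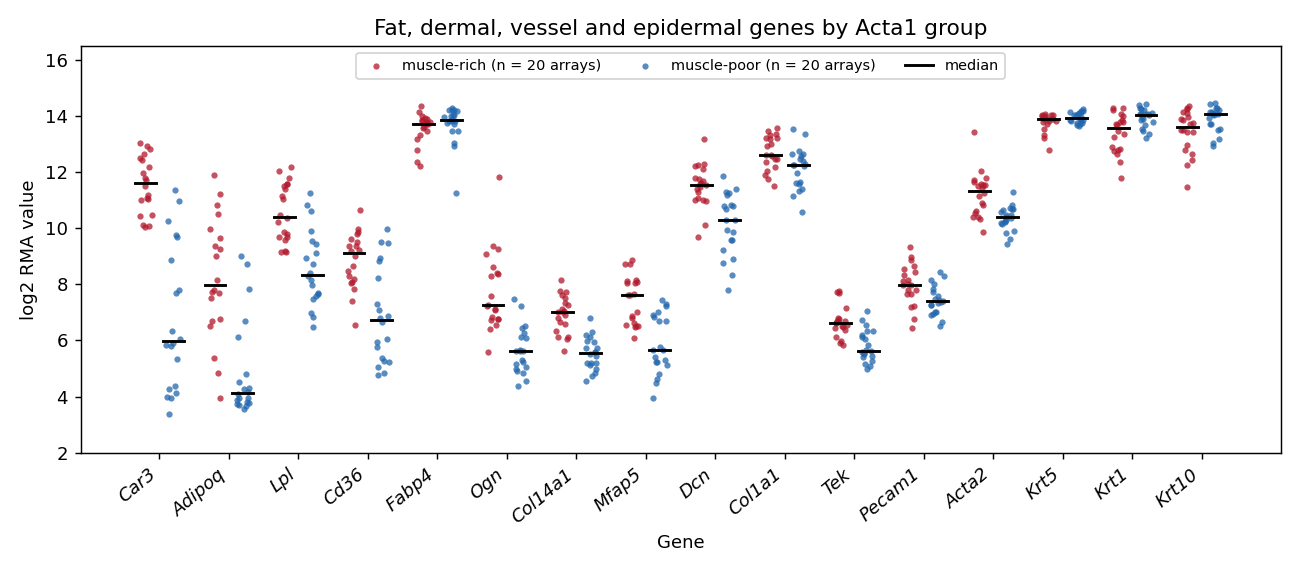
Log2 RMA values (vertical axis) of 16 fat, dermal, vessel and epidermal genes on the 20 muscle-rich arrays (red, left of each pair) and the 20 muscle-poor arrays (blue, right), with a line at each median. Car3 and Adipoq have the widest gaps between medians, Fabp4 and Krt5 have nearly equal medians, and the groups overlap for every gene shown.

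Few blood vessel genes were called. All 19 endothelial genes tested had positive differences with a median of 0.34, and 4 passed the test, beside a background of 8.19%; with sex as a term 1 passed and without the mice of doubtful label 0, with 6 at an unadjusted p under 0.05 in limma. The 4 were Tek (the angiopoietin receptor), Cdh5 (VE-cadherin), Esam (an endothelial junction protein) and Sox17 (a transcription factor of arteries), of which Esam and Sox17 were named after their values were seen. Esam lost its call without any of 15 single mice, at adjusted p of up to 0.083, and Sox17 without mouse 13 or 25, at up to 0.056. Tek lay between 5.84 and 7.77 (median 6.62) on the muscle-rich arrays and between 5.00 and 7.06 (median 5.63) on the muscle-poor arrays, and rose by 0.77 ± 0.17 (limma adjusted p = 0.0061, 0.042 with sex as a term, 0.051 without the mice of doubtful label). Cdh5 rose by 0.39 ± 0.13 (adjusted p = 0.046), a call that ended with sex as a term (0.11) and without any of 17 single mice (up to 0.078). Pecam1, the general endothelial marker, had medians of 7.99 on the muscle-rich and 7.39 on the muscle-poor arrays and a difference of 0.46 ± 0.19 (adjusted p = 0.10). With mouse as a fixed block the median over the endothelial genes was -0.07. In lymphatic vessels Lyve1 (a hyaluronan receptor) and Flt4 (the VEGF-C receptor) rose among 5 genes tested, by 1.15 ± 0.35 and 0.59 ± 0.18, with adjusted p of 0.13 and 0.12 with sex as a term. Lyve1 lost its call without mouse 8, 13 or 25 and Flt4 without mouse 13, at adjusted p of up to 0.059 and 0.058.

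Smooth muscle genes rose in 4 of 15 cases, beside a background of 8.19%, with a median difference of 0.35; 2 passed with sex as a term and 1 without the mice of doubtful label. Acta2, smooth muscle actin of vessel walls and activated fibroblasts, lay between 9.86 and 13.43 (median 11.33) on the muscle-rich arrays and between 9.43 and 11.29 (median 10.39) on the muscle-poor arrays, and rose by 0.85 ± 0.19 (limma adjusted p = 0.0056, 0.046 with sex as a term, 0.055 without the mice of doubtful label). Tagln, an actin-binding protein of the same cells, rose by 0.86 ± 0.19 (adjusted p = 0.0055, 0.031 with sex as a term). Synpo2, an actin-bundling protein of muscle Z-discs, and Kcnj8, a potassium channel of pericytes, were the other calls, at adjusted p of 0.015 and 0.048, and neither passed with sex as a term (0.082 and 0.15). The call of Kcnj8 also ended without any of 21 single mice (up to 0.079). Myh11, the myosin that defines mature smooth muscle, had medians of 6.66 on the muscle-rich and 6.37 on the muscle-poor arrays and a difference of 0.38 ± 0.15 (adjusted p = 0.086). Among 8 genes of Schwann cells and nerve, Ncam1 (a cell adhesion molecule of nerve and of repairing muscle) rose by 0.74 ± 0.18 (adjusted p = 0.0085, 0.038 with sex as a term) and Pmp22 (a myelin protein that fibroblasts also make) by 0.81 ± 0.24 (adjusted p = 0.025, 0.070 with sex as a term), with a list median of -0.06. Pmp22 lost its call without mouse 13 or 14 (up to 0.077).

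The epidermal lists held few calls, all of them lower. None of the 15 genes of the basal layer passed the test in limma, with 2 at an unadjusted p under 0.05 and a median of -0.03. Krt5 had medians of 13.90 on the muscle-rich and 13.93 on the muscle-poor arrays, and Krt14 of 14.61 and 14.72, with differences of -0.17 ± 0.08 and -0.13 ± 0.05 (limma adjusted p = 0.17 and 0.075). In the spinous layer 6 of 14 genes fell and none rose, with a median of -0.26 and a background of 5.17% lower. Krt1, a keratin made when cells leave the basal layer, lay between 11.78 and 14.31 (median 13.57) on the muscle-rich arrays and between 13.22 and 14.43 (median 14.05) on the muscle-poor arrays. It fell by 0.61 on the log2 scale, with an SE of 0.18 (adjusted p = 0.025, 0.14 with sex as a term and 0.064 without mouse 37). Its partner Krt10 had a difference of -0.56 ± 0.21 (adjusted p = 0.064). Of the other spinous calls, Dsc1 (a desmosomal cadherin) differed by -0.55 ± 0.17 and Sfn (stratifin, a regulator of keratinocyte differentiation) by -0.40 ± 0.13; Dsc1 lost its call without mouse 13, 14, 35 or 37 (adjusted p up to 0.13) and Sfn without mouse 13, 14 or 20 (up to 0.13).

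All 30 genes of the cornified layer had negative differences, with a median of -0.35, and 2 passed the test, a share near the background of 5.17%: Alox12b, the lipoxygenase of the skin barrier (-0.81 ± 0.26, limma adjusted p = 0.033), and Calm4, a calmodulin-like protein of keratinocytes (-0.32 ± 0.09, adjusted p = 0.020). The 3 calls among 15 genes of hyperplastic epidermis, Krt6a, Krt6b and Krt16 (keratins of wounded and thickened epidermis), lay between -0.33 and -0.13. The cornified median ranged from -0.55 without mouse 3 to -0.21 without mouse 14, and without the mice of doubtful label it was -0.18 with 8 positive differences. Within start cohorts the mean over the cornified list was higher on the muscle-rich arrays in 2 of 7, with differences from -2.01 to 2.59. Alox12b lost its call without any of 7 single mice (up to 0.12) and Calm4 without mouse 14 (0.069). The calls of Krt6a, Krt6b and Krt16 ended without any of 11, 22 and 2 single mice (up to 0.13, 0.17 and 0.11). With sex as a term no gene of the spinous, cornified and hyperplastic lists passed in limma, with 9, 6 and 6 at an unadjusted p under 0.05, and without the mice of doubtful label none passed, with 8, 3 and 4. The hair follicle, sebaceous and mitosis lists, with 20, 8 and 23 genes tested, gave 1 call in all (Acaca, a fatty acid synthesis enzyme of the sebaceous list, -0.23 ± 0.07, adjusted p = 0.030, 0.059 without mouse 13), and the list medians were 0.23, -0.04 and -0.11. At an unadjusted p under 0.05 these lists held 0, 1 and 1 genes in limma.

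In females alone the median difference was 0.80 for the dermal list, 0.72 for white fat, 1.00 for macrophages and -0.63 for the cornified layer, and in males alone it was 0.30, 0.39, -0.07 and -0.07, from 16 against 7 arrays in females and 4 against 13 arrays in males. For the thick filament both sexes gave similar medians, 2.60 in females and 2.42 in males. Whether the groups differed more in 1 sex was tested as an interaction: none of 21561 probesets passed an adjusted p of 0.05 in limma, and 1272 had an unadjusted p under 0.05.

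**Figure D4:**
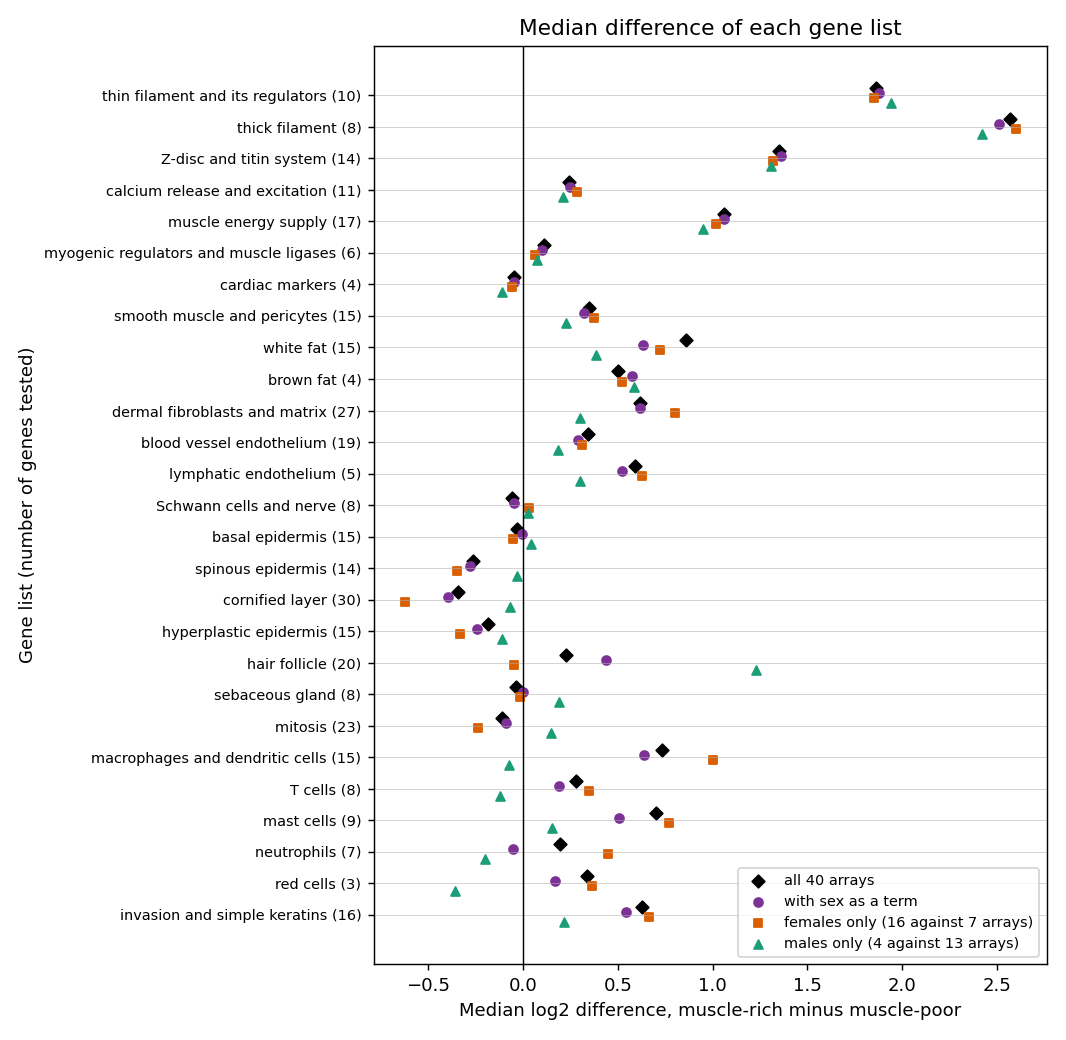
Median log2 difference, muscle-rich minus muscle-poor (horizontal axis), of each gene list (rows, number of tested genes in brackets) for all 40 arrays, with sex as a term, and in females and males alone. The thick filament list lies between 2.42 and 2.60 in every fit shown, whereas macrophages lie at 1.00 in females and -0.07 in males.

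Immune genes rose in some lists. Of 15 genes of macrophages and dendritic cells 6 were higher, all 15 differences were positive and the median was 0.73, beside a background of 8.19% higher. None passed with sex as a term or without the mice of doubtful label in limma, with 7 and 6 at an unadjusted p under 0.05. Lyz2, lysozyme of myeloid cells, lay between 9.65 and 13.12 (median 11.88) on the muscle-rich arrays and between 8.22 and 12.08 (median 10.34) on the muscle-poor arrays, and rose by 1.18 ± 0.30 (limma adjusted p = 0.012, 0.074 with sex as a term). Adgre1, the F4/80 antigen, rose by 0.98 ± 0.30 (adjusted p = 0.027), with a difference of 1.31 in females and -0.09 in males, and lost its call without mouse 13 or 14 (up to 0.088). In the mast cell list 2 of 9 genes rose, beside the same background of 8.19%. None rose with sex as a term or without the mice of doubtful label in limma, with 3 and 3 at an unadjusted p under 0.05. Mcpt4 (a chymase) rose by 0.99 ± 0.32 and Kit (the stem cell factor receptor) by 0.70 ± 0.21. Mcpt4 lost its call without any of 12 single mice (adjusted p up to 0.099) and Kit without mouse 13 or 14 (up to 0.080). The T cell list held 1 call among 8 genes, Thy1, which fibroblasts also make (adjusted p = 0.020, 0.11 with sex as a term, 0.066 without mouse 14), and the neutrophil and red cell lists, with 7 and 3 genes tested, held none, with 2 and 0 at an unadjusted p under 0.05 in limma. Of 16 genes linked to invasion and simple epithelia 8 were higher, beside a background of 8.19%, with 1 higher with sex as a term and 0 without the mice of doubtful label (8 at an unadjusted p under 0.05 in limma). Krt8, a keratin of simple epithelia, rose by 1.51 ± 0.47 (adjusted p = 0.031, 0.18 with sex as a term), and Itga5, the fibronectin receptor subunit, rose by 0.51 ± 0.13 (adjusted p = 0.012, 0.038 with sex as a term). The call of Krt8 ended without mouse 13, 14, 20 or 35 (up to 0.059) and that of Itga5 without mouse 14 (0.055). Others of the 8, such as Fn1 (fibronectin, 0.098 with sex as a term) and Vim (vimentin, 0.078 with sex as a term), are also products of fibroblasts, and the calls of both ended without single mice (up to 0.15 for Fn1, 0.060 without mouse 14 for Vim).

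The 12 largest rises outside the muscle lists held several genes that striated muscle is known to make although the lists did not include them. Fhl1, a LIM-domain protein abundant in skeletal muscle, lay between 7.84 and 11.34 (median 9.69) on the muscle-rich arrays and between 5.62 and 7.85 (median 7.28) on the muscle-poor arrays (difference 2.39 ± 0.22, limma adjusted p = 6.98e-11). Cmya5, myospryn of the muscle costamere, differed by 1.77 ± 0.20 (adjusted p = 1.74e-08), Ppp1r3c, which targets a phosphatase to glycogen, by 1.97 ± 0.23 (adjusted p = 6.38e-08), and Myhas, annotated as antisense to the fast myosin genes, by 2.41 ± 0.33 (adjusted p = 4.03e-06). These 4 genes kept their calls with sex as a term and within males alone. Since Acta1 chose the arrays, their p-values do not test a difference apart from that choice, and their values are a description. Myhas lay below the array medians on every muscle-poor and middle array, so it passed the filter through the muscle-rich arrays alone. Cmya5 lay below them on every muscle-poor array. Jchain, the joining chain of antibodies, rose by 2.21 ± 0.58 (limma adjusted p = 0.015, 0.038 with sex as a term, 0.13 without the mice of doubtful label), beside Igha and Igkv8-30, antibody gene segments whose probesets may share sequence with related segments. Igkv8-30 lost its call without mouse 13, 14 or 37 (adjusted p up to 0.063). Cxcl12, a chemokine of stromal cells, rose by 1.69 ± 0.35 (adjusted p = 0.0035, 0.023 with sex as a term). Adipoq, Car3, Ogn and Lpl complete the 12.

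Among the 12 largest falls, Clec2g, a C-type lectin gene of the natural killer complex, was the only gene whose call held with sex as a term (limma adjusted p = 0.000861). It lay between 4.81 and 6.78 (median 6.17) on the muscle-rich arrays and between 6.12 and 8.29 (median 6.84) on the muscle-poor arrays, and 9 muscle-rich arrays stood below every muscle-poor array. It fell by 1.00 on the log2 scale, with an SE of 0.17 (adjusted p = 0.000212, 0.0024 without the mice of doubtful label). Akr1d1, a steroid reductase, lay between 5.30 and 9.97 (median 7.60) on the muscle-rich arrays and between 6.82 and 10.41 (median 9.00) on the muscle-poor arrays (-1.33 ± 0.36, adjusted p = 0.016, 0.066 without mouse 14). H60c, a ligand of the NKG2D receptor made by mouse keratinocytes, differed by -1.05 ± 0.31 (adjusted p = 0.023, 0.075 without mouse 14 and also lost without mouse 37), and Gsta2, a glutathione transferase, by -0.93 ± 0.24 (adjusted p = 0.013). Slc16a14, Cited4, Gp1bb, Slc6a19, Wfdc5, Alox12b and Ces2g differed by between -0.97 and -0.81, and the locus Mir1949 was the remaining one, given by name only. Without mouse 14 the calls of Mir1949, Cited4 (0.071) and Wfdc5 (0.078) ended, and Slc6a19 lost its call without mouse 13 or 14 (up to 0.087).

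The 28 middle arrays, which the ranking put in neither group, were fitted on their own, although 13 of their 21 mice also gave an array to the muscle-rich or muscle-poor group. With Acta1 as a continuous covariate 27 probesets had a positive slope (0.125%) and 2 a negative one (0.00928%) at an adjusted p under 0.05 in limma, on arrays chosen by Acta1 for lying between the groups. Of these 29, 22 belonged to 19 muscle-list genes, Acta1 itself among them. Acta1 was fitted on its own values, so its slope carries no test although the counts include it. Some of the 29, such as Neb, Myot, Myh2 and Myhas, lay below the array medians on every middle array. They passed the filter through the muscle-rich arrays alone, and their slopes here rest on low values. Per log2 unit of Acta1, Myh1 changed by 1.80 ± 0.11, Tnnc2 by 1.05 ± 0.06 and Ckm by 0.33 ± 0.04. The other positive slopes were those of Pik3ip1, Smarca2, Adh1, Myhas and Cmya5, and the negative ones those of Zfp800 and Gabpb2; all 7 are named after their values were seen. No member of the fat, dermal, vessel or epidermal lists passed in limma; at an unadjusted p under 0.05 there were 7 of 15 white fat, 12 of 27 dermal, 1 of 19 endothelial and 1 of 14 spinous genes. Car3 had a slope of 1.27 ± 0.31 (adjusted p = 0.14), Adipoq 0.97 ± 0.30 (0.29), Col14a1 0.48 ± 0.16 (0.31) and Krt1 -0.08 ± 0.35 (0.93).

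In 3 mice the papillomas fell 1 into each group, so the host was the same on both sides. Acta1 was 10.48 in the muscle-rich and 5.80 in the muscle-poor papilloma of mouse 14, 11.40 and 5.84 in mouse 20, and 10.77 and 6.21 in mouse 37, in the same order. Myh1 followed in each mouse, at 8.29 against 3.05, 10.47 against 2.83, and 11.84 against 3.11. The fat list did not follow in each mouse: its mean log2 value was 7.66 in the muscle-rich against 8.05 in the muscle-poor papilloma of mouse 14, 7.20 against 6.72 in mouse 20, and 7.50 against 7.32 in mouse 37. The dermal list was 10.50 against 9.26, 9.19 against 8.83, and 9.40 against 9.33, higher in the muscle-rich papilloma each time. The cornified list was lower in it each time, at 10.39 against 12.15, 10.34 against 10.82, and 10.79 against 11.49. In the same order, the Actb log2 ratio of RNA integrity was 0.50 against 0.61, 1.00 against 0.79, and -0.27 against 1.71, so the papillomas of mouse 37 also differed in it. Its part in these differences was not tested. A fit on these 6 arrays with mouse as a fixed block had 2 residual degrees of freedom and called 0 probesets in either direction, with 1369 of 21561 at an unadjusted p under 0.05.

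Over the 31 mice with 2 papillomas, Acta1 in papilloma 1 and papilloma 2 had a Pearson r of 0.28 (permutation p = 0.13) and a Spearman rho of 0.33 (permutation p = 0.068), both two-sided, and r was 0.36 without the 2 mice farthest from the median of papilloma 1. The intraclass correlation was 0.29. In 12 of the 31 mice the papillomas differed by more than 2 log2 units, with the largest gap, 5.56, in mouse 20. Both papillomas were muscle-rich in 3 mice and muscle-poor in 5 mice.

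**Figure D5:**
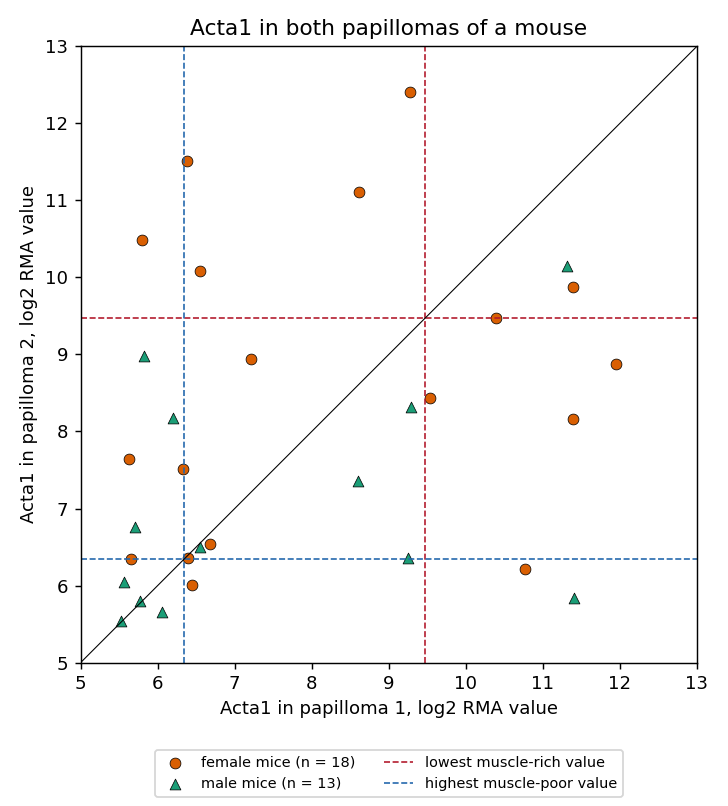
Acta1 log2 value in papilloma 1 (horizontal axis) and papilloma 2 (vertical axis) of the 31 mice with 2 papillomas, by sex, with a line of equality and dashed lines at the limits of the muscle-rich (9.48) and muscle-poor (6.35) groups. Of the 3 mice split between the groups, mouse 14 lies at the upper left and mice 20 and 37 at the lower right, and r over the 31 mice is 0.28.

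Acta1 was then set against 8 labels of the mice, with the mean over a mouse's papillomas as the value. Females averaged 8.94 ± 2.03 (SD, n = 21) and males 7.40 ± 1.76 (SD, n = 16), a difference of 1.54 (two-sided permutation p = 0.022, Benjamini-Hochberg adjusted p = 0.17 over the 8 relations). It was 1.11 without the mice of doubtful sex label (permutation p = 0.12) and 1.14 in papilloma 1 only (permutation p = 0.16). Within start cohorts that held both sexes the difference between females and males was positive in 5 of 6 and ranged from -2.64 to 6.77. Susceptible mice averaged 8.85 ± 2.29 (SD, n = 12) and resistant mice 8.48 ± 2.20 (SD, n = 6), a difference of 0.37 (exact permutation p = 0.74), which was 1.33 without the mice of doubtful label, mouse 35 at 12.55 among them (exact permutation p = 0.24). Agouti and white mice differed by 0.24 (permutation p = 0.73), and mice with and without a profiled carcinoma by 0.69 (exact permutation p = 0.46). Start cohort accounted for a share of 0.046 of the variance (permutation p = 0.96). Pearson correlations were 0.24 with papilloma number at 20 weeks (n = 37), 0.05 with days alive (n = 31) and -0.22 with weeks to the first papilloma (n = 35), with permutation p of 0.16, 0.77 and 0.22. Spearman rho was 0.12, 0.08 and -0.15 (permutation p of 0.49, 0.67 and 0.40), and r without the 2 mice farthest from the median label value was 0.05, -0.07 and -0.20. No relation passed after adjustment.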

How the data were processed

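Total RNA of 68 papillomas was hybridized to Affymetrix mouse expression arrays, and the authors deposited 1 table of log2 expression values made with RMA (background correction, quantile normalization and probe summary), for which the version is not given in the sources used here. RMA makes the arrays' distributions alike, so values are relative to the rest of each array, and the number of arrays limits the precision.

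Of 45101 probesets, 34945 had 1 gene symbol, 932 several and 9160 none, and 64 were controls. Tested were 21561 probesets of 12596 genes with 1 symbol and a value above their own array's median on at least 11 of 68 arrays. The 20 highest and 20 lowest arrays by Acta1 were fitted in R 4.3.3 (limma 3.58.1) taking mouse as a random block (duplicateCorrelation; fits without 1 mouse reused the full correlation), Benjamini-Hochberg adjustment over all tested probesets and a threshold of 0.05. ± marks the SE of the fit unless SD is stated. Permutation tests used Python 3.11.15 with numpy 2.4.6, pandas 2.3.3 and scipy 1.17.1, and plots matplotlib 3.10.9. The fit was tested on simulated data. A gene is represented by its probeset of highest mean. Named were the 12 tested genes outside the muscle lists of largest difference in each direction past the threshold, up to 4 members of each list with the largest differences, the fiber-type genes, defining markers and the 10 probesets most like Acta1. Other names were chosen after their values were seen. The groups, members and lists were chosen with earlier results of these data known. The fits with a sex term and within 1 sex were added after seeing the data.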

Additional observations from a re-analysis of the deposited data

Results flagged for a closer look

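Among 11 groups of 4 to 10 mice checked for a value far from the others, 1 stood out. In the resistant class, whose 6 mice averaged 8.48 for Acta1, the highest mouse had a value of 12.55, and its gap to the next mouse was 0.631 of the group's range, beside a critical value of 0.625. This was mouse 35, which gave 1 papilloma and is among the mice whose sex label the X- or Y-linked transcripts did not match. About 1 in 20 such groups is marked by chance.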

How the results depend on the processing

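The numbers of higher and lower probesets, 1766 and 1115, came to 205 and 16 with 10 against 10 arrays, 1254 and 684 ranked by Ckm, 1123 and 590 ranked by the mean of the muscle lists, 31 and 12 with mouse as a fixed block (which 3 mice inform), 1525 and 1991 with arrays centered on the tested median, 1560 and 1851 centered outside muscle, 1165 and 663 with start cohort as a term, 341 and 87 with class, sex and coat as terms, 2761 and 2172 with the control ratios of RNA integrity as covariates, 293 and 65 without mice of doubtful sex label, and 3117 and 2770 with Acta1 as a continuous covariate over 68 arrays. With the alternatives added after seeing the data they came to 405 and 86 with sex as a term, 1200 and 661 in females only and 41 and 0 in males only (219 lower at an unadjusted p under 0.05). Without each mouse in turn they ranged from 693 to 2304 and from 225 to 1602. With papilloma number as a replicate block they came to 1778 and 1089; the number only names the papillomas of a mouse. In the middle arrays a slope on Ckm gave 19 positive and 0 negative calls (813 negative at an unadjusted p under 0.05). The cause of these changes was not tested. Of the differences of genes outside muscle named here, the sign turned in males only for Adgre1 (-0.0901), C1qb (-0.16), Dsc1 (0.0542), Krt10 (0.0178) and Krt5 (0.000297), and with mouse as a fixed block for Esam (-0.0678), Myh11 (-0.26) and Pecam1 (-0.17). The white fat median was 0.06 with that block. For Acta1 by label, the class difference was -0.46 and the carcinoma difference -0.12 in papilloma 1 only, and without mice of doubtful label the carcinoma difference was -0.0909 and the correlation with days alive -0.00921.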
